A study of Mus musculus with 6 samples.

Results

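Genomic imprinting silences the copy of a gene that came from the mother or the one that came from the father, so that a cell transcribes a single parental copy. Many imprinted genes act on growth before and after birth, through growth factors, receptors and their adaptors, inhibitors of the cell cycle and long non-coding RNAs. Several of them are known for high expression in the pituitary, where somatotropes make growth hormone and lactotropes make prolactin. The results below describe 10 such genes, chosen by name: Dlk1, Meg3 and Rian of the Dlk1-Meg3 region, Nnat, Peg3, Cdkn1c, Igf2, H19, Plagl1 and Grb10. All 10 had a row in the deposited expression table, among 22869 genes with a symbol. They had 21 transcript rows between them, and each gene was represented by its most abundant row over the 6 libraries.

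RNA was sequenced from somatotropes and lactotropes that had been isolated by fluorescence-activated sorting (FACS) from pituitaries of untreated female CD1 x C57BL/6 hybrid mice, 6 to 8 weeks old. Each cell type had 3 libraries, labelled biological replicates 1 to 3. The sources used here do not name the marker or gate of the sort or the number of animals behind a library, so a p-value measures the spread between these libraries. Levels were deposited as FPKM, the fragment number of a transcript divided by its length and by all mapped fragments of the library. These values do not separate the maternal from the paternal copy. FPKM divides by transcript length, and levels of different genes are set side by side below on that scale. The libraries still differed from each other by transcript length, as given below, so an order of genes can change with the library. The read depth behind the values is unknown.

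The libraries matched their labels in direction: all 3 somatotrope libraries lay above all 3 lactotrope libraries for Gh and Ghrhr, and the reverse held for Prl. Both hormones were still high in both cell types. Gh had 84909, 19384 and 43379 FPKM in somatotropes and 3954, 6856 and 7623 FPKM in lactotropes. Prl had 10464, 8709 and 24481 FPKM in somatotropes and 195325, 25171 and 148913 FPKM in lactotropes. The part of cells of the other type in these values was not tested. Replicate 1 stood apart in both cell types. Over the 11642 tested genes, whose mean level was 1 FPKM or more, replicate 1 exceeded the mean of replicates 2 and 3 of its cell type by a median of 1.00 on the log2(FPKM + 1) scale, a shift that fell to 0.11 after median-ratio scaling of the libraries and to 0.08 after quantile normalization. Leukocyte marker levels summed to 303 and 907 FPKM in somatotrope 1 and lactotrope 1, and to between 3166 and 13676 FPKM in the remaining 4. A value of 0 was given for 14.9% of tested genes in lactotrope 3 and for 0.23% to 2.95% in each other library, so a 0 is reported below as a listed value and not as absence. Erythroid marker sums were 4259 and 3529 FPKM in the replicate 3 libraries and at most 325 FPKM elsewhere.

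Promoter windows are shown for Meg3, Peg3 and Plagl1, the 3 genes with a match to either of the motifs named next. The sequences are the 250 bases before the transcript start, 5′ to 3′ on the gene's strand, from RefSeq on GRCm38.p6. Windows were found for 8 of the 10 genes, with none for Cdkn1c or H19; those of Dlk1, Rian, Nnat, Grb10 and Igf2, and another Meg3 window, held no match. Capitals mark matches on either strand to TGACGTCA, the cyclic AMP response element, or to TGCCGC, the core bound by the imprint-protecting zinc finger protein ZFP57.
Meg3, chr12:109540746-109540995, plus strand: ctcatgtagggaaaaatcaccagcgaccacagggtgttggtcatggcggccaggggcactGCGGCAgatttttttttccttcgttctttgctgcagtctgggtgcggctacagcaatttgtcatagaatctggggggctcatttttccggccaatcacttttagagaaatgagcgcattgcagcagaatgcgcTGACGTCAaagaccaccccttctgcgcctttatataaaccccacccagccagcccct
Peg3, chr7:6730420-6730669, minus strand: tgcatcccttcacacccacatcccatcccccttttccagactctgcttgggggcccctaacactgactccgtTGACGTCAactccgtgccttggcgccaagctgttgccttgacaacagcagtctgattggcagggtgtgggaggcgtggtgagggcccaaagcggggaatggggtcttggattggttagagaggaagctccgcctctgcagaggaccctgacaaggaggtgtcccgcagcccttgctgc
Plagl1, chr10:13090582-13090831, plus strand: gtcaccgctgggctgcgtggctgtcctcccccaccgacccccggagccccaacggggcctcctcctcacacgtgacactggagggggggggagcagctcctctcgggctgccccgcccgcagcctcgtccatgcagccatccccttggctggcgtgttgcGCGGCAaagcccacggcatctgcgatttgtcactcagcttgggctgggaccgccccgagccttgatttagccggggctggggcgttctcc
In the Meg3 window the TGACGTCA match began 57 bases before the start and the match to TGCCGC began 190 bases before it. The Peg3 match to TGACGTCA began 178 bases before the start, and the Plagl1 match to TGCCGC began 90 bases before it. TGACGTCA occurred in 1.55% and TGCCGC in 8.68% of all 32851 RefSeq windows of this length. Each motif was found in 2 of the 13 windows of the 8 genes, and the motifs do not overlap each other. The Pit-1 core ATGNATA was in 0 of the 13 and in 7.92% of all windows. These are letter matches only, and binding was not measured.

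The 10 genes covered a wide range, from Nnat, at rank 3 to 54 of 22869 genes by library, to H19, listed at 0 in 5 of 6 libraries. Ordered by mean level over the 6 libraries they were Nnat, Meg3, Dlk1, Peg3, Plagl1, Rian, Cdkn1c, Grb10, Igf2 and H19. Nnat was above Meg3, and Grb10 above Igf2, in all 6 libraries with no overlap of their ranges. The ranges of every other pair of neighbours overlapped; Meg3, for example, was above Dlk1 in 2 of 6 libraries. By the median over the 6 libraries the order differed. Dlk1 (71.8 FPKM) then lay above Meg3 (68.6 FPKM), and Cdkn1c (4.72 FPKM) above Plagl1 (3.71 FPKM) and Rian (3.41 FPKM). The plot of levels by library shows the values.

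**Figure D1:**
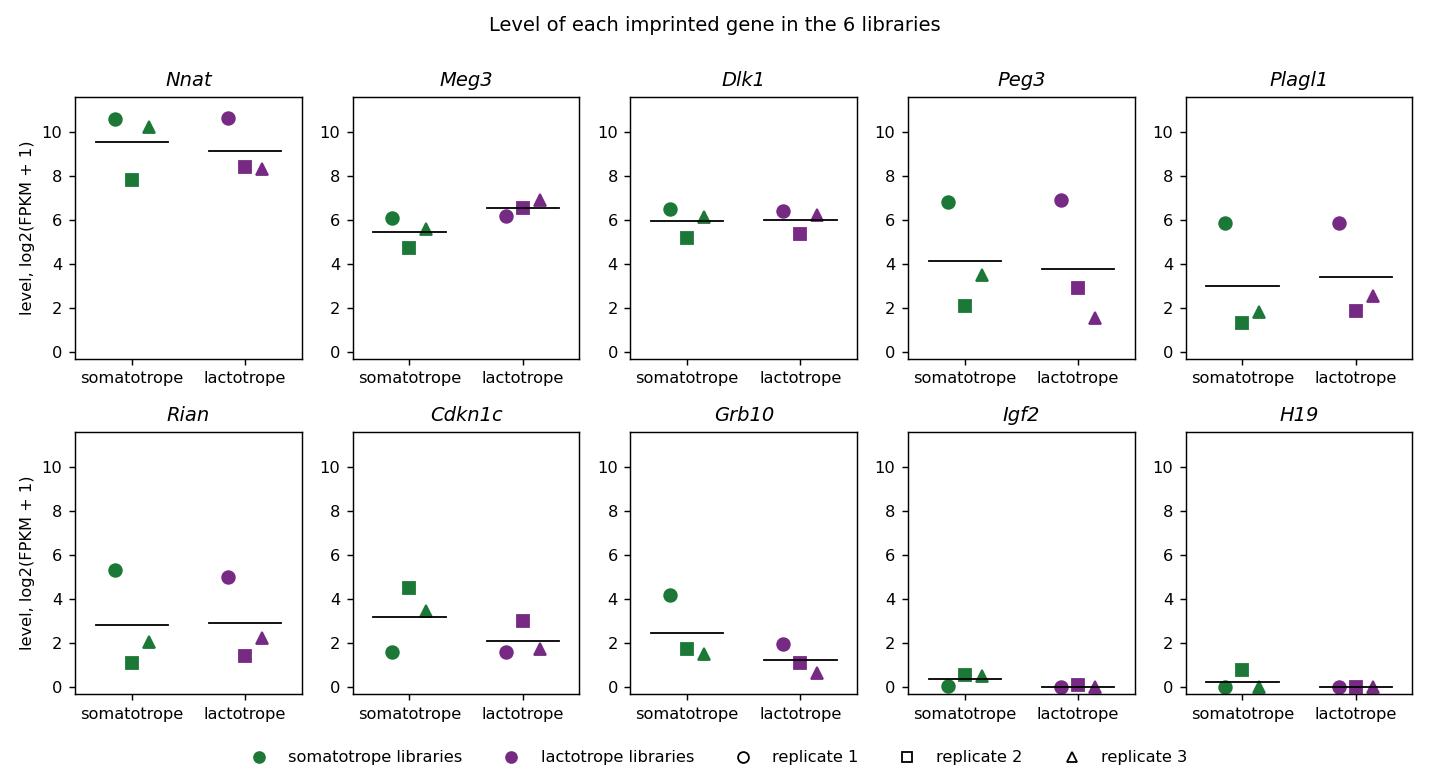
Level of the 10 imprinted genes as log2(FPKM + 1) in each of the 6 libraries, with somatotropes in green, lactotropes in purple, the replicate number as the symbol and the mean of the 3 libraries as a line. Nnat lies highest in every library, Dlk1 stays between 35.3 and 88.1 FPKM, and Peg3, Plagl1 and Rian are far higher in both replicate 1 libraries than in the other 4.

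Of the 10 genes, 8 reached the mean of 1 FPKM required for a test, and Igf2 and H19 did not. None of the 8 differed between the cell types at an adjusted p under 0.05 (limma on log2(FPKM + 1), Benjamini-Hochberg over 11642 genes), where 0.0% of all tested genes did. Gh, Ghrhr and Prl were not called either, so a gene without a call may still differ between the cell types. At an unadjusted p under 0.05 there were 0 of the 8 and 112 of all genes. Cdkn1c and Grb10 were higher in somatotropes in all 3 replicate pairs, as were 22.9% of tested genes. Meg3 was the only gene of the 8 higher in lactotropes in all 3 pairs, as were 11.2% of tested genes, so that 3 of the 8 kept the same direction in all pairs, against 34.1% of tested genes. The median difference, somatotrope minus lactotrope, was 0.14 over the 8 genes and 0.18 over all tested genes. With replicates 2 and 3 alone, 6 of the 8 had the same direction in both pairs (58.2% of tested genes), and with replicates 1 and 2 alone 5 did (55.5%). In bulk RNA, fewer cells of a type in a library and less RNA per cell cannot be told apart.

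**Figure D2:**
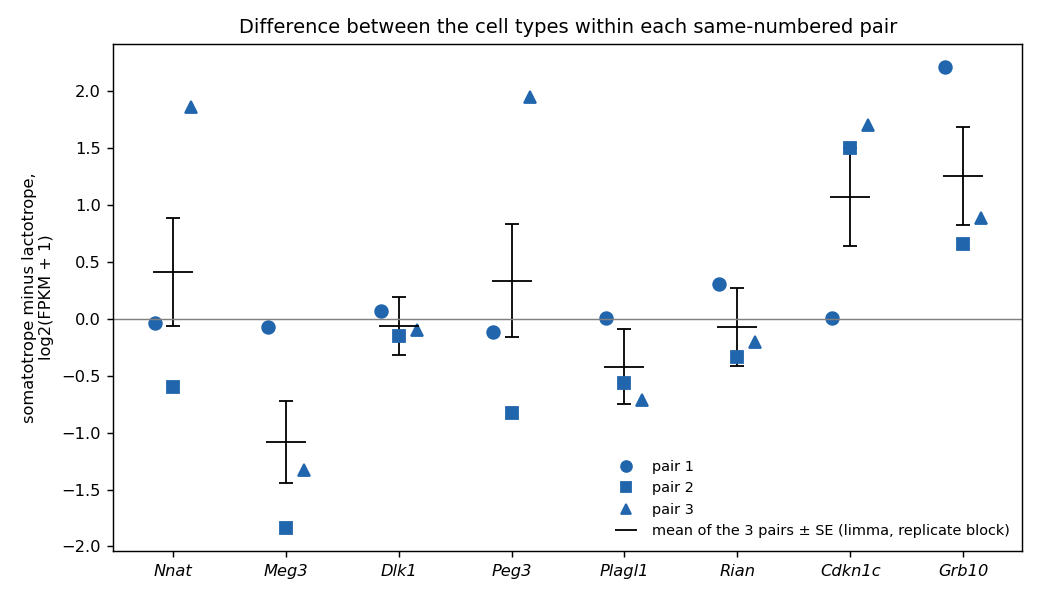
Difference between somatotrope and lactotrope on the log2(FPKM + 1) scale for the 8 tested genes, with 1 point per replicate pair and the mean of the 3 pairs with its standard error from the limma fit with the replicate block. Meg3 lies below 0 and Cdkn1c and Grb10 above 0 in all 3 pairs, while Nnat and Peg3 lie below 0 in pairs 1 and 2 and above 0 in pair 3.

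Dlk1, which encodes a transmembrane Delta-like protein shed as a soluble inhibitor of differentiation, had nearly the same level in both cell types (mm9, chromosome 12, 110691665 to 110701546, plus strand, NM_001190705). Its level was 88.1, 35.3 and 69.3 FPKM in somatotropes 1 to 3 and 84.1, 39.4 and 74.3 FPKM in lactotropes 1 to 3. Libraries with the same replicate number lay close together, replicate 2 was the lowest in both cell types, and the groups overlapped. The somatotrope mean was 64.2 ± 26.8 FPKM and the lactotrope mean 65.9 ± 23.5 FPKM (SD, n = 3 each). The difference was -0.06 ± 0.58 (log2, SE), with a 95% interval of -1.31 to 1.19 and a two-sided exact permutation p of 0.8, where 3 against 3 cannot go below 0.1. With the replicate block the interval was -0.65 to 0.52. Within a pair the ratio of somatotrope to lactotrope was 1.05, 0.895 and 0.933, and replicate number took up 98.8% of the sum of squares of Dlk1, against a median of 77.4% over all tested genes. Its 5 transcript rows overlap and share reads, and each gave a difference of -0.06 or -0.07.

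Meg3, a maternally expressed long non-coding RNA of the same region, was the only one of the 8 tested genes whose cell types did not overlap (chromosome 12, 110779206 to 110806810, plus strand, NR_027651). The level was 66.8, 25.4 and 46.6 FPKM in somatotropes and 70.3, 93.4 and 119 FPKM in lactotropes. All 3 lactotrope libraries lay above all 3 somatotrope libraries, but lactotrope 1 exceeded somatotrope 1 only 1.05-fold, against 3.67-fold and 2.55-fold in pairs 2 and 3. Of all tested genes, 1.15% had all lactotropes above, 2.51% had all somatotropes above and 3.66% had either. The separation was lost for Meg3 under both median-ratio scaling and quantile normalization, where all 3 pairs kept their direction. Means were 46.3 ± 20.7 and 94.1 ± 24.1 FPKM (SD, n = 3 each). The difference of -1.08 ± 0.56 (log2, SE, 95% interval -2.30 to 0.14) did not pass the test, with a limma p of 0.0777, an adjusted p of 1.00 and an exact two-sided permutation p of 0.1, the smallest possible. With the replicate block the 95% interval was -1.90 to -0.26, with an adjusted limma p of 0.363. Leukocyte markers were higher in lactotropes in all 3 pairs for 12 of 12 genes, against 11.2% of all tested genes. Their summed levels were 303, 6199 and 3166 FPKM in somatotropes and 907, 13676 and 4969 FPKM in lactotropes. The part of these markers in the Meg3 difference was not tested.

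The result for Meg3 depended on the transcript row. On the genome the row NR_027652 starts at the same base and ends 3129 bases further on, and the row NR_003633 starts 4402 bases further in and ends with the first. NR_027652 had 152, 3.91 and 9.95 FPKM in somatotropes and 193, 9.41 and 9.92 FPKM in lactotropes. NR_003633 had 53.2, 5.33 and 12.4 FPKM in somatotropes and 52.1, 18.1 and 21.5 FPKM in lactotropes. Both rows were highest in the replicate 1 libraries and overlapped between cell types, with differences of -0.47 and -0.77 (log2) and exact permutation p-values of 0.7 and 0.5. NR_027652 stood at 2.27 and 2.74 times NR_027651 in replicate 1, while NR_027651 stood at 4.68 to 11.95 times NR_027652 in the other 4 libraries. The rows overlap and share reads, and the sources used here do not say how the authors divided reads between them. The microRNA row Mir1906-1, which lies within Meg3, had 688, 108 and 217 FPKM in somatotropes and 945, 583 and 709 FPKM in lactotropes.

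**Figure D3:**
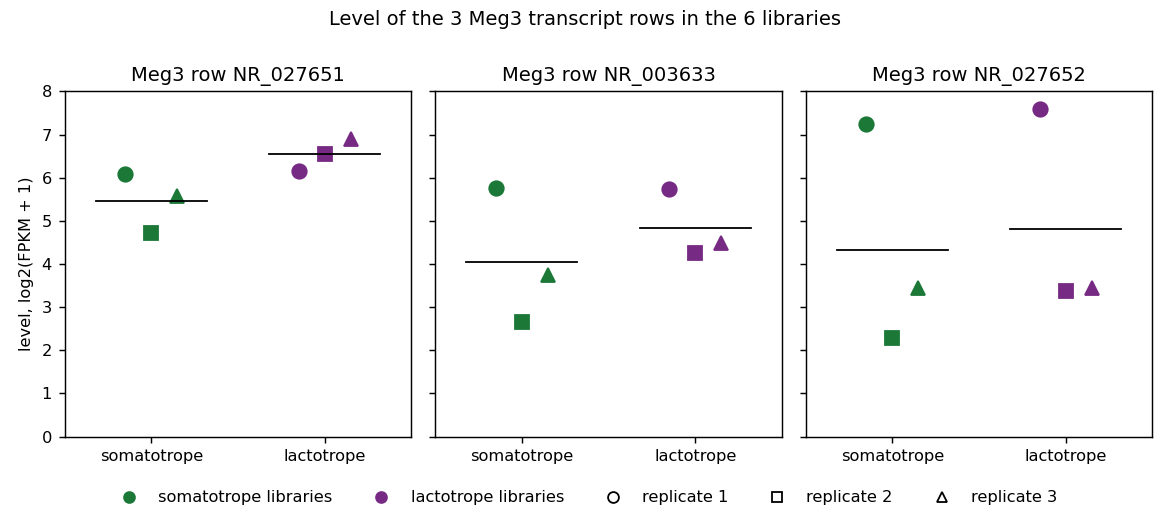
Level of the 3 transcript rows of Meg3 as log2(FPKM + 1) in the 6 libraries, with the replicate number as the symbol and the mean of 3 libraries as a line. The row NR_027651 is higher in lactotropes in replicates 2 and 3 and nearly equal in replicate 1, while NR_027652 is highest in both replicate 1 libraries, at 152 and 193 FPKM, and at most 9.95 FPKM elsewhere.

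Rian, the next maternally expressed non-coding RNA along the region and host of small nucleolar RNAs, differed between replicates far more than between cell types (chromosome 12, 110842155 to 110899921, plus strand, NR_028261). It had 39.0, 1.16 and 3.11 FPKM in somatotropes and 31.4, 1.72 and 3.72 FPKM in lactotropes. Both replicate 1 libraries were high, the other 4 were low, and the cell types overlapped, with a difference of -0.08 ± 1.10 (log2, SE, n = 3 each, exact permutation p = 0.9). By the row NR_027651, Meg3 therefore stood at 1.71 and 2.24 times Rian in replicate 1. In the other 4 libraries that row stood at 14.99 to 54.4 times Rian. Dlk1 stood at 1.32, 1.39 and 1.49 times the same Meg3 row in somatotropes and at 1.19, 0.422 and 0.626 times in lactotropes. These ratios depend on the row, since the Meg3 row NR_027652 was, like Rian, highest in both replicate 1 libraries.

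Mirg and AF357359 of the same region were, like Rian, highest in both replicate 1 libraries. Mirg, a microRNA host further along, had 14.0, 0.852 and 0.406 FPKM in somatotropes and 15.6, 1.37 and 1.37 FPKM in lactotropes. AF357359, a small RNA row inside Rian, had 307, 6.70 and 7.96 FPKM and 250, 5.23 and 32.4 FPKM. Of 59 microRNA precursor rows between Dlk1 and Dio3, the somatotrope libraries had 39, 11 and 6 above 0 and the lactotrope libraries 32, 22 and 6. Of the 59, 12 were listed at 0 in all libraries. Over all 22869 genes, 18592, 14957 and 14272 were above 0 in somatotropes and 16454, 15969 and 11318 in lactotropes. Rtl1, the paternally expressed retrotransposon-like gene, stayed at or under 0.941 FPKM, and Dio3, which encodes a deiodinase that inactivates thyroid hormone, was listed at 0 in all 6 libraries. These rows are read as signal at the precursor's position, not as mature microRNA.

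**Figure D4:**
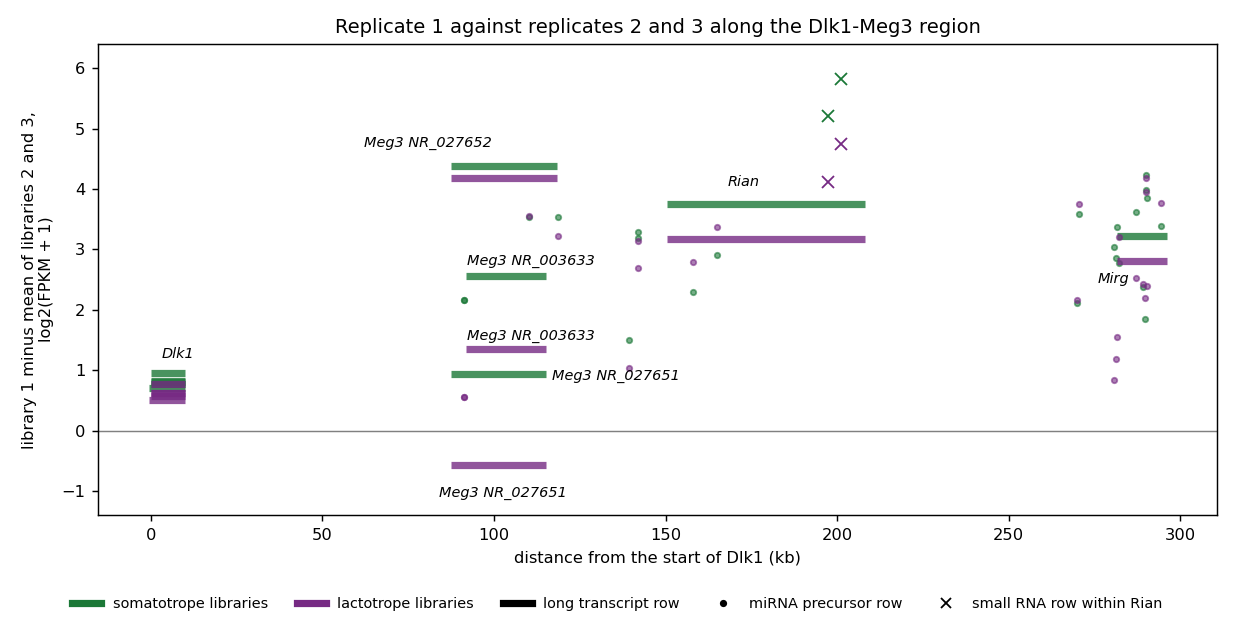
Replicate 1 minus the mean of replicates 2 and 3 (log2(FPKM + 1)) for rows of the Dlk1-Meg3 region, by distance in kb from the start of Dlk1, in somatotropes and lactotropes; bars span long transcript rows, dots are microRNA precursors, crosses are small RNAs within Rian, and only rows with a mean of at least 1 FPKM are drawn. Among the long rows, Dlk1 and Meg3 NR_027651 lie nearest to 0, and Meg3 NR_027652, Rian, Mirg and the small RNAs within Rian lie higher.

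Nnat, which encodes neuronatin, a small membrane protein of the endoplasmic reticulum, was the most abundant of the 10 genes in every library (chromosome 2, 157385846 to 157388255, plus strand, NM_180960). It had 1529, 223 and 1174 FPKM in somatotropes and 1573, 338 and 321 FPKM in lactotropes. Somatotropes 1 and 3 and lactotrope 1 were high, the other 3 libraries were low, and the cell types overlapped. These levels ranked 3, 54 and 11 in somatotropes and 5, 35 and 31 in lactotropes among 22869 genes. The means were 975 ± 675 and 744 ± 718 FPKM (SD, n = 3 each), and the difference was 0.41 ± 0.89 (log2, SE, exact permutation p = 1.0). By pair it was -0.04, -0.60 and 1.86, so that its sign rests on pair 3. Markers of other pituitary cells were also high in somatotrope 3: those of corticotropes and melanotropes summed to 142, 1216 and 5787 FPKM in somatotropes and 921, 557 and 428 FPKM in lactotropes. Gonadotrope markers summed to 377, 309 and 1780 FPKM and to 753, 134 and 303 FPKM. In somatotrope 3 most of these sums came from single genes, Pomc at 5758 FPKM and Cga at 1675 FPKM, and Cga is also a thyrotrope marker. The part of other pituitary cells in the pair 3 values of Nnat and of Peg3 was not tested. Nnat lies within an intron of Blcap on the opposite strand, and Blcap had 82.1, 24.6 and 23.9 FPKM in somatotropes and 58.8, 14.6 and 17.0 FPKM in lactotropes.

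Peg3 and Plagl1, paternally expressed genes for zinc finger transcription factors, showed the replicate pattern most strongly among the 8, each taken by its most abundant row. Peg3 had 110, 3.24 and 10.2 FPKM in somatotropes and 119, 6.56 and 1.90 FPKM in lactotropes (chromosome 7, 6658671 to 6683130, minus strand, NM_008817). Plagl1 had 57.4, 1.49 and 2.52 FPKM in somatotropes and 57.0, 2.67 and 4.75 FPKM in lactotropes (chromosome 10, 12810594 to 12851501, plus strand, NM_009538). In both genes the replicate 1 libraries of the cell types were nearly equal to each other and far above the other 4, and the cell types overlapped. The highest library stood at 62.6 times the lowest for Peg3 and at 38.6 times for Plagl1, and at 49.3 times for the Meg3 row NR_027652. The differences between cell types were 0.33 ± 1.29 for Peg3 and -0.42 ± 1.19 for Plagl1 (log2, SE, n = 3 each, exact permutation p = 0.8 and 0.6), and those of Peg3 by pair were -0.12, -0.83 and 1.95.

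Apeg3, an antisense transcript within Peg3, had 296, 9.10 and 33.1 FPKM in somatotropes and 282, 17.1 and 3.83 FPKM in lactotropes and was thus also highest in both replicate 1 libraries. The sources used here do not say whether reads were counted by strand, so reads of Peg3 and Apeg3 cannot be told apart. Usp29, the paternally expressed neighbour of Peg3, was low in all libraries, at 2.01 and 2.24 FPKM in replicate 1 and at most 0.298 FPKM elsewhere.

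Replicate 1 was above the other 4 libraries in both cell types for 6 of the 8 tested genes, as for 57.7% of all tested genes. At least 4-fold above each of the other libraries of its cell type, in both cell types, were Peg3, Plagl1 and Rian, 3 of the 8 on the log2(FPKM + 1) scale, where 3.89% of all tested genes were. Their excess of replicate 1 over replicates 2 and 3 was 4.34, 3.98 and 3.46 (log2), at the 99.9, 99.8 and 99.5 percentile of all tested genes. After median-ratio scaling the excess was 3.29, 2.93 and 2.44, and after quantile normalization 3.63, 3.17 and 2.63, with the same percentiles to within 0.1. The counts moved with the scaling: on median-ratio scaling replicate 1 was above the other 4 libraries for 3 of the 8 (24.0% of tested genes) and 4-fold above for 1 (0.378%), and on quantile normalization for 4 (23.5%) and for 3 (0.464%). The 3 on quantile normalization were Nnat, Peg3 and Plagl1, without Rian, and the excess of Nnat was 3.13, at the 99.8 percentile, against 1.91 in the deposited values. The direction of Dlk1 reversed on median-ratio scaling, from 0.72 to -0.39. That of Meg3, counted here by its row NR_027651, reversed from 0.18 to -0.93, and to -0.49 on quantile normalization. The Meg3 row NR_027652 had an excess of 4.28 in the deposited values and met the 4-fold rule in both cell types. Over all tested genes the median excess was 0.75 for transcripts under 1000 bases, 0.61 at 1000 to 2000 bases, 0.97 at 2000 to 4000, 1.39 at 4000 to 6000 and 1.64 at 6000 bases or more, and the part of length in the values of Peg3, Plagl1 and Rian was not tested.

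**Figure D5:**
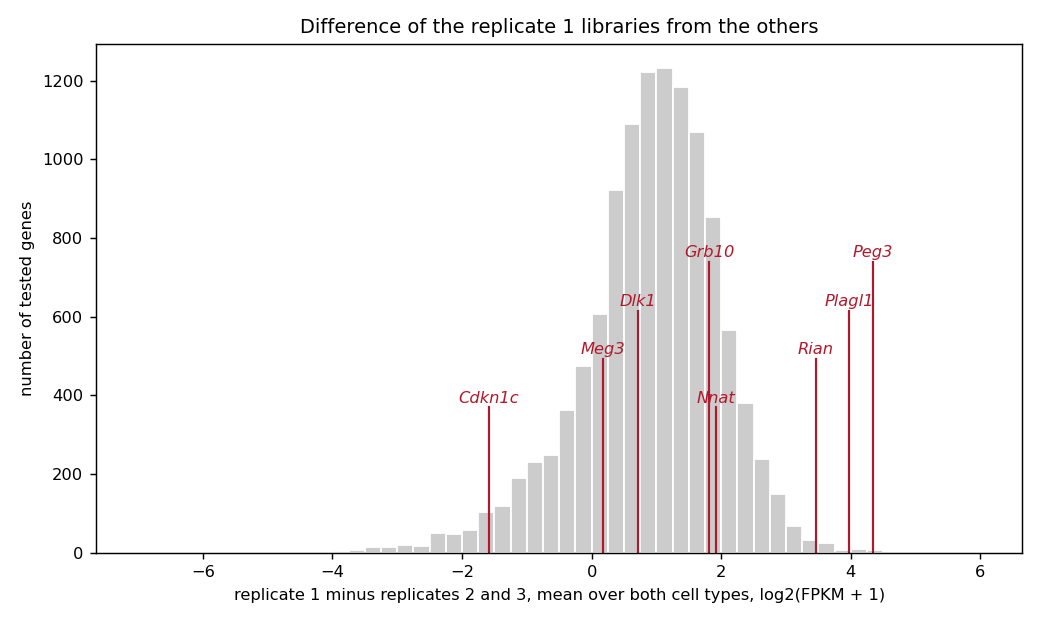
Distribution over 11642 tested genes of replicate 1 minus the mean of replicates 2 and 3 (log2(FPKM + 1), mean of both cell types), with the 8 tested imprinted genes marked. Peg3, Plagl1 and Rian lie at 4.34, 3.98 and 3.46, near the upper end, and Cdkn1c lies at -1.58, near the lower end.

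Cdkn1c, a maternally expressed gene for the cyclin-dependent kinase inhibitor p57, had the opposite order of libraries (chromosome 7, 150644244 to 150646955, minus strand, NM_009876). It had 2.05, 21.7 and 10.01 FPKM in somatotropes and 2.03, 7.06 and 2.38 FPKM in lactotropes. Both replicate 1 libraries were lowest and almost equal, replicate 2 was highest in each cell type, and the cell types overlapped. The means were 11.3 ± 9.90 and 3.82 ± 2.81 FPKM (SD, n = 3 each), and the difference of 1.07 ± 0.82 (log2, SE, 95% interval -0.70 to 2.84) had an adjusted limma p of 1.00 and an exact permutation p of 0.3. With the replicate block the 95% interval was 0.09 to 2.04, with an adjusted limma p of 0.425. By pair the difference was 0.01, 1.496 and 1.70, so that somatotropes exceeded lactotropes in replicates 2 and 3 and were level with them in replicate 1. Markers of stem and folliculostellate cells summed to 255, 1723 and 1152 FPKM in somatotropes and 134, 662 and 155 FPKM in lactotropes. Of these markers 7 of 8 tested were higher in somatotropes in all 3 pairs, against 22.9% of all tested genes. None of the 8 was called, as over all tested genes. The part of these cells in the values of Cdkn1c was not tested. Replicate 1 minus replicates 2 and 3 was -1.58 for Cdkn1c (log2), at the 2.61 percentile of tested genes.

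Grb10, which encodes an adaptor that binds the insulin and insulin-like growth factor receptors and restrains growth, was higher in somatotropes in every pair (chromosome 11, 11830502 to 11927974, minus strand, NM_001177629). It had 17.1, 2.37 and 1.89 FPKM in somatotropes and 2.92, 1.138 and 0.563 FPKM in lactotropes. Somatotrope 1 stood far above the rest, and lactotrope 1 lay above somatotropes 2 and 3, so the cell types overlapped. The ratio of somatotrope to lactotrope was 5.88, 2.08 and 3.36 in pairs 1 to 3. With means of 7.14 ± 8.67 and 1.54 ± 1.23 FPKM (SD, n = 3 each), the difference of 1.25 ± 0.84 (log2, SE, 95% interval -0.56 to 3.06) had an adjusted limma p of 1.00 and an exact permutation p of 0.3. With the replicate block the 95% interval was 0.27 to 2.24, with an adjusted limma p of 0.377. The cell types no longer overlapped after median-ratio scaling or quantile normalization, with somatotropes above. The share of all genes without overlap was not counted under these scalings. By pair the quantile-normalized differences of Grb10 were 2.36, 0.78 and 0.22. Without somatotrope 1 the difference was 0.41.

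Igf2, a paternally expressed fetal growth factor, and H19, the maternally expressed non-coding RNA beside it, were at or near 0. Igf2 had 0.0277, 0.495 and 0.430 FPKM in somatotropes and 0, 0.0732 and 0 FPKM in lactotropes (chromosome 7, 149836673 to 149846940, minus strand, NM_001122736). H19 had 0.699 FPKM in somatotrope 2 and was listed at 0 in the other 5 libraries (chromosome 7, 149761437 to 149764051, minus strand, NR_001592). Mir675, which lies within H19, was likewise above 0 in somatotrope 2 alone, at 2.52 FPKM. With values this low and the depth unknown, no difference between the cell types was detectable. Fibroblast and mural markers, from cells that can express Igf2, summed to 30.6, 37.5 and 67.0 FPKM in somatotropes and 73.8, 26.5 and 21.9 FPKM in lactotropes, and endothelial markers to at most 3.98 FPKM.

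Among the 8 tested genes, levels across the 6 libraries were most alike for Rian and Plagl1, with a Pearson r of 0.99 on log2(FPKM + 1). Dlk1 and Meg3, neighbours on chromosome 12, had 0.43. Meg3 stands here for its row NR_027651, and the row NR_027652, highest in both replicate 1 libraries, was not compared. Cdkn1c was negatively related to each of the other 7. These 6 points share the replicate numbers and the scaling of the libraries, and the values are descriptions. The genes most like each member by the same measure were Rpl29 and Ascc1 for Dlk1, Olfml3 and Bin1 for Meg3, 2610029G23Rik and Rpl24 for Rian, Vps4a and A330069E16Rik for Nnat, Msl1 and Tor1b for Peg3, Kazald1 and Ppp1r1a for Cdkn1c, Cc2d2a and Ptprn2 for Plagl1, and Slc25a26 and Trib3 for Grb10. Each was at 0.95 or above. The number of genes above 0.95 was 1114 for Peg3, 988 for Plagl1 and 905 for Rian, and 2 for Meg3.

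Among other imprinted genes no difference was called either. Of 48 listed, 47 had a row and 31 were tested, of which 0 were called, against 0.0% of all tested genes. In all 3 pairs 8 were higher in somatotropes (25.8%, against 22.9% of all tested genes) and 8 in lactotropes (25.8%, against 11.2%). Their median difference was 0.13, against 0.18 over all tested genes. Gnas, which encodes the stimulatory G protein alpha subunit that carries the growth hormone releasing hormone signal, had 673, 808 and 886 FPKM in somatotropes and 630, 533 and 523 FPKM in lactotropes. It was the only gene of the 31 whose cell types did not overlap, 3.23% against 3.66% of all tested genes (difference 0.48 ± 0.64, log2, SE, n = 3 each, exact permutation p = 0.1). Sgce, which encodes a sarcoglycan, had 32.6, 79.0 and 27.3 FPKM in somatotropes and 28.6, 26.7 and 2.71 FPKM in lactotropes. Asb4, an ankyrin repeat gene, had 19.3, 6.10 and 3.57 FPKM in somatotropes and 69.5, 6.60 and 26.2 FPKM in lactotropes. Neither passed the test, with differences of 1.55 ± 0.79 and -1.49 ± 0.83 (log2, SE).

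Among genes that work with the 10 no difference was called, as over all tested genes. The counts below stand against shares over all tested genes of 22.9% (somatotropes higher in all 3 pairs), 11.2% (lactotropes higher in all 3 pairs) and 3.66% (no overlap). Of 12 tested partners of insulin-like growth factor signalling, 4 were higher in somatotropes and 1 in lactotropes in all 3 pairs, and the median difference was 0.73. The 1 was Irs2, an insulin receptor substrate, with 7.24, 1.88 and 6.07 FPKM in somatotropes and 10.9, 7.94 and 16.4 FPKM in lactotropes, which did not overlap (-1.16 ± 0.67, log2, SE, exact permutation p = 0.1, n = 3 each). Of 5 tested cyclin-dependent kinase inhibitors and PLAG family genes, Cdkn1a, which encodes p21, had 13.1, 2.83 and 6.48 FPKM in somatotropes and 1.63, 2.63 and 0.216 FPKM in lactotropes, also without overlap (1.71 ± 0.77), and the list's median was -0.10. Of 5 tested Notch pathway genes, 2 were higher in somatotropes in all 3 pairs, Heyl and Hey1, which encode Notch target repressors, with differences of 1.34 ± 0.74 and 1.17 ± 0.71 and a list median of 0.81. Of 9 tested genes that maintain imprints, 2 were higher in somatotropes in all 3 pairs, Ctcf and Tet3, with a list median of 0.02. In the deposited values all 9 were highest in the replicate 1 libraries, as were 57.7% of all tested genes. The share of all tested genes was 24.0% after median-ratio scaling, and the 9 were not counted on that scale. Zfp445, which encodes a zinc finger protein that protects imprints, had 19.5, 2.65 and 4.17 FPKM in somatotropes and 20.8, 4.56 and 2.62 FPKM in lactotropes.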

How the data were processed

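The authors deposited 1 table of FPKM values per transcript row for 6 libraries. Per the labels' protocols, the RNA came from cells sorted into Trizol LS, and the NuGen Ovation V2 kit amplified it. TopHat, edgeR and bcl2fastq 2.17.1.14 were the tools and mm9 the genome build, per the submitters' processing notes; the sources used here do not say which step gave the FPKM values. FPKM falls for all genes when a few transcripts are very abundant, and the total count behind each library is unknown.

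Of 30399 rows, 889 without a symbol were left out, and each of the 22869 genes kept its row of highest mean. Genes averaging 1 FPKM or more, 11642 in all, were tested as log2(FPKM + 1), which understates the change of low genes, with limma 3.58.1 in R 4.3.3 (intensity trend, Benjamini-Hochberg adjustment, threshold 0.05) and no replicate block. The code was tested on simulated data. Single genes were also compared by two-sided exact permutation tests. Same-numbered libraries deviated together from their group means (correlations over genes 0.763, 0.613 and 0.341). Libraries with different numbers ranged from -0.631 to 0.233, the highest for somatotrope 3 with lactotrope 2. The numbers in the titles were therefore taken to pair the samples, with the weakest basis for pair 3.

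The 10 genes and all lists were chosen with earlier results of these data known. Named beside them are, of each list, up to 3 genes with the largest difference in the same direction in all 3 pairs and the 2 most abundant, examples of which are given, neighbours that overlap or adjoin the 10 genes, chosen after their values were seen, and for each tested gene the 2 genes with the highest Pearson r. Of corticotrope and melanotrope markers and of gonadotrope markers, only summed levels and the most abundant gene were described, and the thyrotrope list was not described. These lists had 4, 4 and 3 tested genes and 0 called, against 0.0% of all tested genes. Pseudocounts, filters, scalings, variance settings, the block and each library left out were tried as alternatives. Comparisons by other Meg3 rows and by 2 of the 3 replicates were added after seeing the data.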

Additional observations from a re-analysis of the deposited data

How the results depend on the processing

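None of the 8 tested genes passed an adjusted p of 0.05 under any alternative run, with adjusted p-values from 0.146 (Meg3, array weights) to 1.00. With the replicate block the count over all genes was 0, as without it, and the block changed no call; unadjusted p-values under 0.05 numbered 1271 over all genes and 3 among the 8, Meg3, Cdkn1c and Grb10, whose adjusted limma p-values with the block were 0.363, 0.425 and 0.377. Over all genes 9 were called with array weights, 43 with the replicate block and array weights together, and 0 to 3 with a library left out. Meg3, Cdkn1c and Grb10 kept their direction throughout. The sign turned for Rian with a pseudocount of 5 (0.015) and with array weights (0.16), for Dlk1 with array weights (0.18), and for Nnat (-0.023) and Peg3 (-0.15) with the block and array weights; the cause was not tested. Leaving out each library in turn moved the difference from -0.39 to 0.31 for Dlk1, -1.33 to 0.98 for Rian, -0.12 to 1.27 for Nnat, -1.0002 to 1.89 for Peg3, -1.86 to 0.80 for Plagl1, -1.39 to -0.71 for Meg3, 0.41 to 1.86 for Cdkn1c and 0.41 to 1.73 for Grb10. With replicates 2 and 3 alone, 6 of the 8 had the same direction in both pairs (58.2% of all genes) and 4 did not overlap (34.9%), and with replicates 1 and 2 alone 5 had the same direction (55.5%) and 1 did not overlap (12.5%). Over all genes the median difference was 0.18 in the deposited values, 0.04 with median-ratio scaling and 0.00 with quantile normalization, and no member's difference changed sign under these scalings. The depth behind the values is unknown, so its effect on precision could not be given.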
